A study of Mus musculus with 8 samples.

Results

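The genes described here are 10 genes of the lipid droplet and of triglyceride turnover, chosen by name: the coat proteins Plin2, Plin3, Plin4 and Plin5, the droplet fusion protein Cidec, the lipases Pnpla2 and Lipe, the acyltransferases Dgat1 and Dgat2, and the budding factor Fitm2. Each was found by its NCBI gene ID, so 10 of the 38920 rows in every deposited table belong to them. The series compared gene expression in gastric epithelial cells from the stomachs of C57BL/6 mice, with 4 libraries from mice fed a high fat diet (HFD22, HFD23, HFD26 and HFD27) and 4 from control mice labelled ND (ND15.17.18, ND16, ND19 and ND20). The labels give no age, sex, diet composition or feeding time, and do not say whether a library came from 1 mouse. The title of ND15.17.18 holds 3 numbers, and no label says whether it pools mice. The p-values therefore measure only the spread between these libraries. The cells were sorted, by a method the labels do not describe, and total RNA was sequenced after removal of ribosomal RNA.

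Cells store fatty acids as triglyceride in lipid droplets, which bud from the endoplasmic reticulum and carry a coat of perilipins. The coat controls access of lipases, so that storage by acyltransferases and release by lipases set the size of the pool. Perilipin 2 is the usual coat of cells other than adipocytes, and its level follows the amount of stored lipid in many tissues.

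None of the 10 genes was called as different between the diets. Of the 10, 0 passed an adjusted p of 0.05 in limma, against 0.0109% of all tested rows (3 of 27401). At an unadjusted p under 0.05 there was 1, Fitm2, against 10.5% of all rows, and 0 of the 10 had groups that did not overlap, against 7.84% of all rows (4.72% with HFD higher and 3.12% with HFD lower). The 2 highest differences were those of Plin5 and Plin2, at 0.98 and 0.40 on the log2 scale. They were 0.11 and -0.0097 without the libraries ND15.17.18 and ND19, but 1.27 and 0.62 without ND20. Leaving out ND15.17.18 and ND19 keeps only ND16 and ND20 as controls, here and below.

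Levels are given as log2(value + 1) after each library was divided by a median ratio to the row means, because every deposited table sums to the same 36.88 M and the median row was 0.90 higher in HFD on that scale. After the division the median row was 0.12 higher in HFD. The lowest values in each table fall on regular steps, read here as the worth of 1 read, which put the depth at 31.4 to 46.0 M reads in HFD and at 16.4 to 63.2 M reads in ND. The libraries ND15.17.18 and ND19 stand apart, since the 20 most abundant rows took 85.7% and 59.1% of their totals, against 29.0% to 43.1% in HFD, 27.8% in ND16 and 41.2% in ND20. The column headers of HFD23 and HFD27 differ in form from those of the other 6 tables, and no label says whether they were processed apart. HFD23 was also the library most often far from the others of its group in the wider lipid lists. With or without it 0 of the 10 genes were called, so this count cannot show its part. Markers of gastric epithelium were high in both diets, with summed levels of 17.19 to 17.53 in HFD and 17.23 to 17.67 in ND, and the parietal cell list stood at 17.59 to 18.19 in HFD and 17.75 to 18.28 in ND. In bulk RNA fewer cells of a type and less RNA per cell cannot be told apart.

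The perilipin coat showed no gene with a called difference. Plin2 (chromosome 4, 86626910 to 86670217, mm10) stood at 8.44, 8.67, 8.54 and 8.63 in HFD22, HFD23, HFD26 and HFD27, against 7.33, 8.25, 8.25 and 8.82 in ND15.17.18, ND16, ND19 and ND20. The HFD libraries lay close together and inside the range of the controls, with ND15.17.18 lowest and ND20 highest of all. The difference was 0.40 ± 0.28 (SE, n = 4 each; 95% interval -0.21 to 1.02; limma adjusted p = 0.62), and it was 0.098 without ND15.17.18, -0.0097 without ND15.17.18 and ND19, and 0.62 ± 0.25 without ND20 (SE; limma unadjusted p = 0.034, adjusted p = 0.41). In ND15.17.18 the Plin2 value was worth 40.5 reads, against 352 to 554 reads in the HFD libraries.

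Plin3 (chromosome 17, 56278962 to 56290511), a perilipin that is soluble in the cytosol and binds droplets as they form, was the most abundant of the 10 genes. It stood at 11.61, 11.76, 11.70 and 11.66 in HFD22, HFD23, HFD26 and HFD27, against 11.34, 11.53, 11.85 and 11.97 in ND15.17.18, ND16, ND19 and ND20. The HFD values again sat in the middle of the control values. Its difference was 0.0062 ± 0.14 (SE; limma adjusted p = 0.99), with a 95% interval of -0.31 to 0.33.

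Plin4 and Plin5 lie close together on the same chromosome as Plin3, at 56100587 to 56109948 and 56111597 to 56117606, all on the minus strand. Plin4, a perilipin best known from adipocytes and muscle, stood at 7.77, 7.87, 7.94 and 7.87 in HFD22, HFD23, HFD26 and HFD27, against 8.06, 8.35, 7.84 and 7.69 in ND15.17.18, ND16, ND19 and ND20, a difference of -0.12 ± 0.18 (SE; limma adjusted p = 0.82). Its exons share 17 bases with Hdgfl2 on the opposite strand. Plin5, the coat protein of tissues that burn fat, which tethers droplets to mitochondria, stood at 5.42, 5.46, 5.72 and 5.89 in HFD22, HFD23, HFD26 and HFD27, against 3.87, 5.42, 3.76 and 5.53 in ND15.17.18, ND16, ND19 and ND20. ND15.17.18 and ND19 were low, while ND16 and ND20 were at the level of the HFD libraries. The 2 low values of Plin5 were worth 3.44 and 3.77 reads, against 42.8 to 77.4 reads in HFD. The difference of 0.98 ± 0.53 (SE; 95% interval -0.21 to 2.17; limma adjusted p = 0.54) was 0.11 without those libraries, and 1.27 ± 0.54 without ND20 (SE; limma unadjusted p = 0.045, adjusted p = 0.44). Cidec (chromosome 6, 113424634 to 113435760), which joins droplets into larger ones, was the most variable gene within HFD, at 5.94, 6.81, 5.58 and 5.60 in HFD22, HFD23, HFD26 and HFD27, against 6.63, 7.32, 4.95 and 6.28 in ND15.17.18, ND16, ND19 and ND20. Its groups overlapped widely, with a difference of -0.31 ± 0.52 (SE; 95% interval -1.47 to 0.86; limma adjusted p = 0.84). It was 0.028 without ND16, -0.58 without HFD23, -0.76 without ND19 and -0.86 without ND15.17.18 and ND19. In ND19 its value was worth 8.96 reads.

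**Figure D1:**
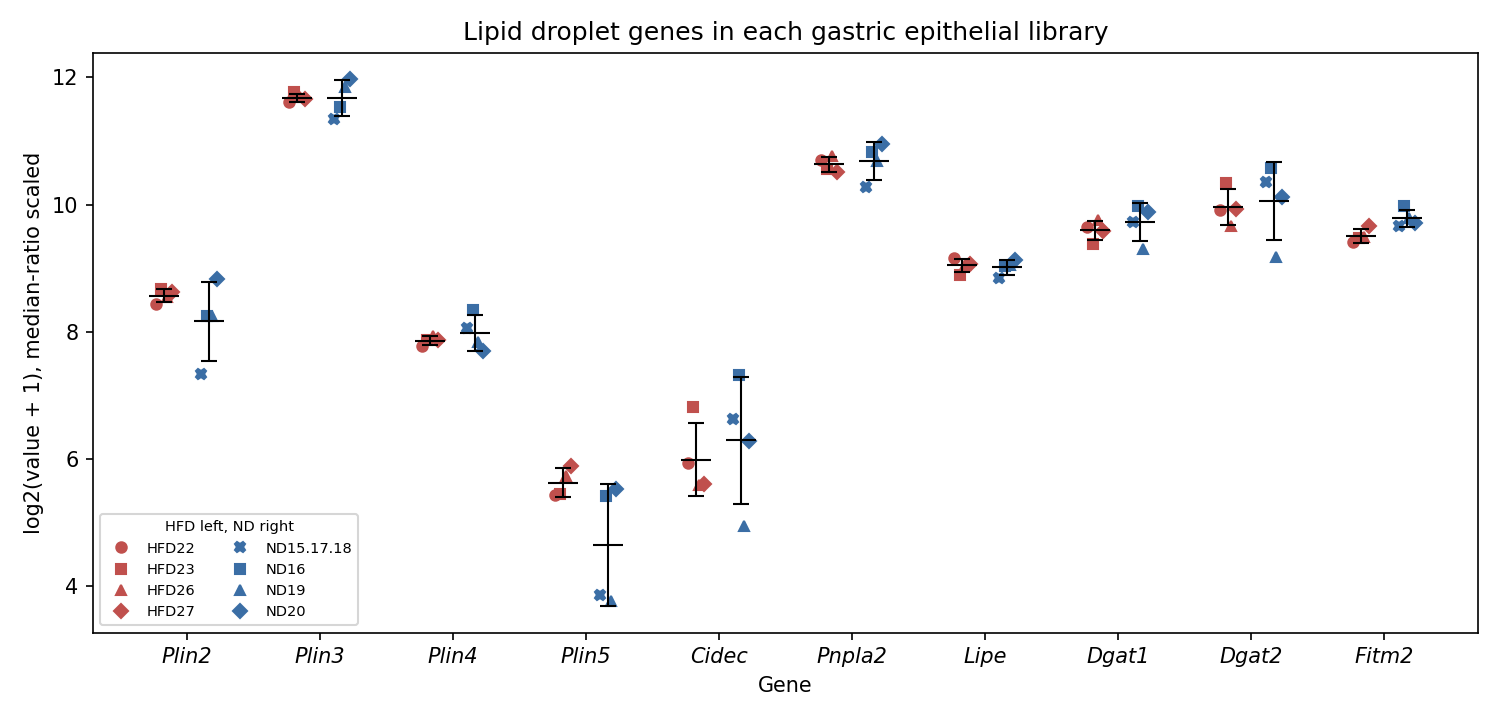
Level of each gene in each library, as log2(value + 1) after median-ratio scaling, with HFD libraries left of ND libraries, 1 symbol per library, and black bars for the mean and SD of 4 libraries. The HFD and ND points of every gene overlap, and the low Plin2 and Plin5 values of ND15.17.18 and the low Plin5, Cidec and Dgat2 values of ND19 widen the control groups.

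Promoter windows are shown for Plin2 and Plin5, picked because their differences were the 2 highest, though neither was called. Both are known targets of the peroxisome proliferator-activated receptors (PPARs), whose binding element is built from the hexamer AGGTCA. Whether other genes of the 10 are such targets was not examined. A part of the PPARs in the differences was not tested. The windows lie mostly upstream of a RefSeq transcript start and come from the RefSeq table of GRCm38.p6, and 8 of the 10 genes have at least 1 window there, 11 in all. They are printed 5′ to 3′ along the minus strand, from chr4:86670010-86670309 for Plin2 and chr17:56117499-56117798 for Plin5, with capitals for AGGTCA or its reverse complement TGACCT.
Plin2: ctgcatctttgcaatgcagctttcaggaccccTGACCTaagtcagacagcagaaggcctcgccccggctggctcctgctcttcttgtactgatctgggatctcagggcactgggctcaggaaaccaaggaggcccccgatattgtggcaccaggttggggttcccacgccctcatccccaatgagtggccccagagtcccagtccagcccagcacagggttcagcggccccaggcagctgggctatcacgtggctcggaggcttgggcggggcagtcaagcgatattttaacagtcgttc
Plin5: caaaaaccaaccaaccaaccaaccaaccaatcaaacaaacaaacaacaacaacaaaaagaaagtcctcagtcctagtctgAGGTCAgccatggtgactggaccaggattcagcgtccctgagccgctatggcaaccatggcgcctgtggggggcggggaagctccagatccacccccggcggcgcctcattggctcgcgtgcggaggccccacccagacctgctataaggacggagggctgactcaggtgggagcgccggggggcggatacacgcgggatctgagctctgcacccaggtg
Each of these windows held the hexamer once, and no window of Cidec, Fitm2, Lipe, Plin3, Plin4 or Pnpla2 held it. Of the 11 windows, 3 held AGGTCA on either strand, 1 in Plin2 and 1 in each of the 2 overlapping windows of Plin5, against 16.3% of 32851 windows of the same length. The E-box CACGTG, searched on both strands as well, was in 2 of 11 windows, those of Plin2 and Lipe, against 7.15%, and CCAAT, on either strand, was in 4 of 11, those of Plin2, Plin3, Plin4 and Plin5, against 37.4%. In the printed Plin2 window the hexamer and CACGTG do not overlap. A match describes these letters and not a bound site.

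Neither lipase was called, and after median-ratio scaling the interval of each lay within 1 log2 unit of no difference. Pnpla2 (chromosome 7, 141455188 to 141460743), the adipose triglyceride lipase that starts the breakdown of triglyceride, stood at 10.70, 10.55, 10.76 and 10.51 in HFD22, HFD23, HFD26 and HFD27, against 10.28, 10.83, 10.69 and 10.96 in ND15.17.18, ND16, ND19 and ND20. The difference was -0.056 ± 0.15 (SE; 95% interval -0.40 to 0.28; limma adjusted p = 0.91), and -0.30 without ND15.17.18 and ND19 (limma unadjusted p = 0.037, adjusted p = 0.42). Lipe (chromosome 7, 25379527 to 25398486), the hormone-sensitive lipase that acts on diglyceride, stood at 9.16, 8.90, 9.06 and 9.06 in HFD22, HFD23, HFD26 and HFD27, against 8.85, 9.03, 9.05 and 9.13 in ND15.17.18, ND16, ND19 and ND20. All 8 Lipe values lay within a narrow band, and ND15.17.18 did not stand apart, with a difference of 0.027 ± 0.12 (SE; 95% interval -0.25 to 0.30; limma adjusted p = 0.95). The exons of Lipe share 918 bases with 4732471J01Rik on the opposite strand, whose row stood at 9.36 to 9.54 in HFD and 9.23 to 10.11 in ND. Whether reads were counted by strand is not given in the sources used here, so reads of the 2 genes cannot be told apart over those bases.

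Among the partners of the lipases, 0 of 18 tested genes were called in either direction. G0s2, the inhibitor that binds Pnpla2, had all HFD libraries above all controls and is named after its values were seen. It stood at 3.14, 3.58, 3.18 and 3.36 in HFD22, HFD23, HFD26 and HFD27, and at 0.87 and 2.94 in ND16 and ND19, and was listed at 0 in ND15.17.18 and ND20. These levels were worth 7.99 to 11.99 reads in HFD and 0 to 2 reads in ND, where a single read in ND15.17.18 or ND20 is worth under 1 and falls to the floor of the deposited scale. The difference of 2.36 ± 0.81 (SE; limma adjusted p = 0.35) was not called. Abhd5, the activator of Pnpla2, was at 9.27 ± 0.14 in HFD and 9.20 ± 0.31 in ND (SD, n = 4 each). Ces1d, a carboxylesterase with triglyceride hydrolase activity, also had groups apart, at 8.21 ± 0.059 in HFD and 7.71 ± 0.24 in ND (SD, n = 4 each; limma adjusted p = 0.35).

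Triglyceride synthesis was represented by both acyltransferases that add the last fatty acid, enzymes of unrelated sequence. Dgat1 (chromosome 15, 76502012 to 76512021) stood at 9.64, 9.39, 9.76 and 9.59 in HFD22, HFD23, HFD26 and HFD27, against 9.73, 9.97, 9.31 and 9.89 in ND15.17.18, ND16, ND19 and ND20. Dgat2 (chromosome 7, 99153663 to 99182713) stood at 9.91, 10.34, 9.66 and 9.93 in HFD22, HFD23, HFD26 and HFD27, against 10.36, 10.57, 9.17 and 10.12 in ND15.17.18, ND16, ND19 and ND20. In both genes the control range contained the HFD range, and ND19 was the lowest library. The differences were -0.13 ± 0.16 for Dgat1 and -0.095 ± 0.29 for Dgat2 (SE; limma adjusted p = 0.78 and 0.92), and that of Dgat2 was -0.39 without ND19, 0.073 without ND16 and 0.0068 without HFD26. Without ND15.17.18 and ND19 they were -0.38 for Dgat1 (limma unadjusted p = 0.027, adjusted p = 0.39) and -0.43 for Dgat2 (limma unadjusted p = 0.083, adjusted p = 0.52).

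Fitm2 (chromosome 2, 163468703 to 163472629), a protein of the endoplasmic reticulum needed for droplets to bud, came closest to a separation. It stood at 9.41, 9.48, 9.49 and 9.67 in HFD22, HFD23, HFD26 and HFD27, against 9.66, 9.98, 9.78 and 9.71 in ND15.17.18, ND16, ND19 and ND20. Only HFD27 and ND15.17.18 crossed, by less than the spread within either group. The difference was -0.27 ± 0.12 (SE; 95% interval -0.54 to -0.0025), with an unadjusted p of 0.048 from limma and an adjusted p of 0.47. On the deposited scale it was 0.59, below the 0.90 of the median row, so its sign depends on the scaling. Its exons share 227 bases with 2310001K24Rik on the opposite strand, whose row stood at 0 to 1.43 in HFD and was listed at 0 in every ND library. Fitm2 stayed below ND on average with any 1 library left out, at -0.34 to -0.21, and was -0.37 without ND15.17.18 and ND19 (limma unadjusted p = 0.028, adjusted p = 0.39). In that setting 3 of the 10 genes, Pnpla2, Dgat1 and Fitm2, had an unadjusted p under 0.05, against 11% of all rows, and 0 were called. Its controls were ND16 and ND20 alone.

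**Figure D2:**
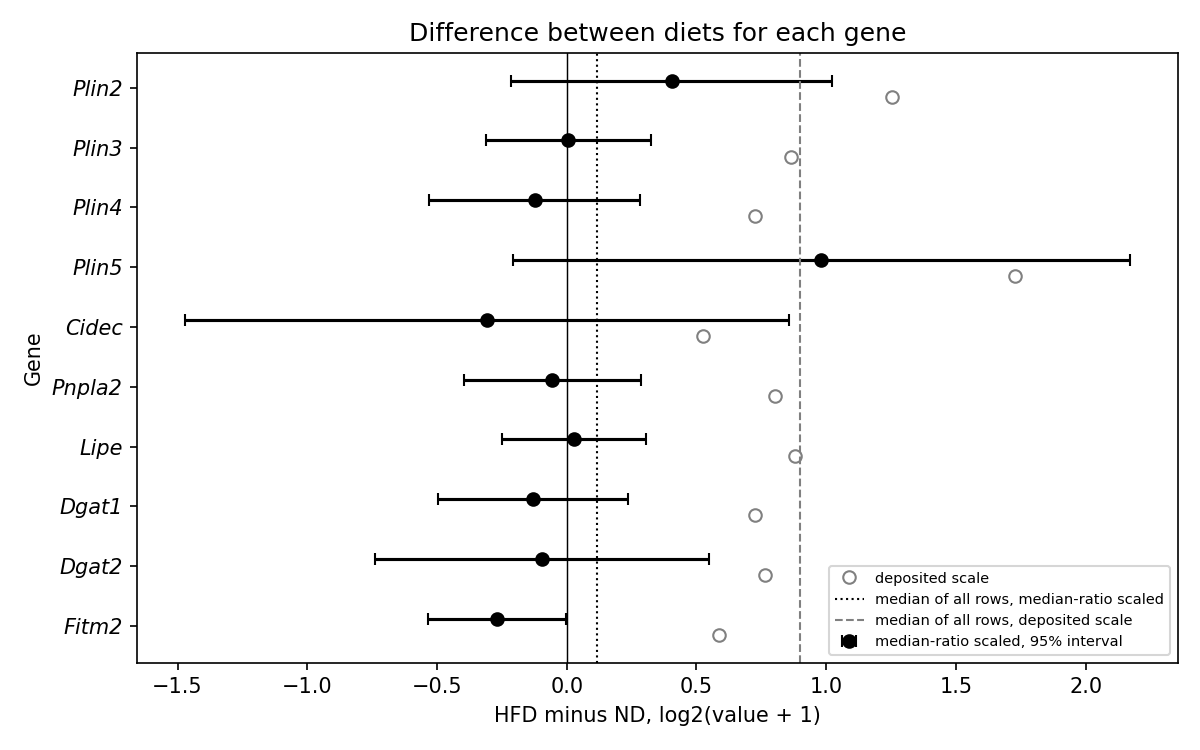
Difference between HFD and ND for each gene on the log2(value + 1) scale, after median-ratio scaling with 95% intervals from limma (filled) and on the deposited scale (open), with vertical lines at 0 and at the median of all tested rows on each scale. The intervals of 7 genes lie within 1 of no difference, and the widest are those of Plin5 and Cidec.

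How much of a difference these libraries could hide varied by gene. After median-ratio scaling the 95% interval lay within 1 log2 unit of no difference for 7 of the 10 genes. For Plin2, Plin5 and Cidec it did not. Differences were positive for 4 genes and negative for 6, with a median of -0.075 against 0.12 for all tested rows. On the deposited scale all 10 were positive, from 0.53 for Cidec to 1.73 for Plin5. The SEs there were 0.74 to 0.89, too wide for a bound of 1 log2 unit on any of the 10 genes. The spread within HFD was smaller than within ND for 10 of 10 genes, against 69.3% of all rows. Without ND15.17.18 and ND19 that count was 6 of 10, against 45.8% of all rows, with the ND spread taken from ND16 and ND20 alone.

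A single scaling factor per library cancels, apart from the pseudocount, in the difference between 2 genes of the same library, and 3 such pairs were compared with exact two-sided permutation tests. Quantile normalization does not cancel in this way. Plin2 minus Plin3 was -3.17, -3.09, -3.16 and -3.03 in HFD22, HFD23, HFD26 and HFD27, against -4.01, -3.28, -3.60 and -3.15 in ND15.17.18, ND16, ND19 and ND20. ND15.17.18, ND16 and ND19 lay below every HFD library and ND20 lay among them. The means were -3.11 ± 0.064 in HFD and -3.51 ± 0.39 in ND (SD, n = 4 each), a difference of 0.40 ± 0.20 (SE; exact permutation p = 0.086, adjusted over the 3 pairs p = 0.26; the smallest p the design allows is 0.029). The difference was 0.28 after quantile normalization (exact permutation p = 0.4) and 0.10 without ND15.17.18 and ND19 (exact permutation p = 0.27). With ND16 and ND20 as the only controls, no exact permutation p under 0.05 is possible. Dgat2 minus Dgat1 was 0.37 ± 0.44 in HFD and 0.33 ± 0.36 in ND (SD, n = 4 each; exact permutation p = 0.86, adjusted p = 0.86). Lipe minus Pnpla2 was -1.59 ± 0.11 in HFD and -1.67 ± 0.18 in ND (SD, n = 4 each; exact permutation p = 0.49, adjusted p = 0.73), a difference of 0.083 that was -0.015 after quantile normalization.

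Cidec and Dgat2 varied together from library to library. ND16 was highest in both genes and ND19 lowest, and HFD23 was the highest HFD library in both. Over the 8 libraries Pearson's r was 0.965 (exact permutation p = 2.5e-04) and Spearman's rho 0.952 (exact permutation p = 0.0011), the strongest of the 45 relations among the 10 genes, with adjusted p-values over the 45 of 0.011 for r and 0.051 for rho. Without ND16 and ND19, the libraries farthest from the median of Cidec, r was 0.942. On the deposited scale r was 0.960 and rho 0.857 (exact permutation adjusted p = 0.0048 and 0.049). After quantile normalization r was 0.918 and rho 0.810 (exact permutation adjusted p = 0.11 and 0.49), so the relation was not called under that setting. Among 15672 named rows compared with Dgat2 over these libraries, Cidec had the fourth highest correlation, as a description.

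**Figure D3:**
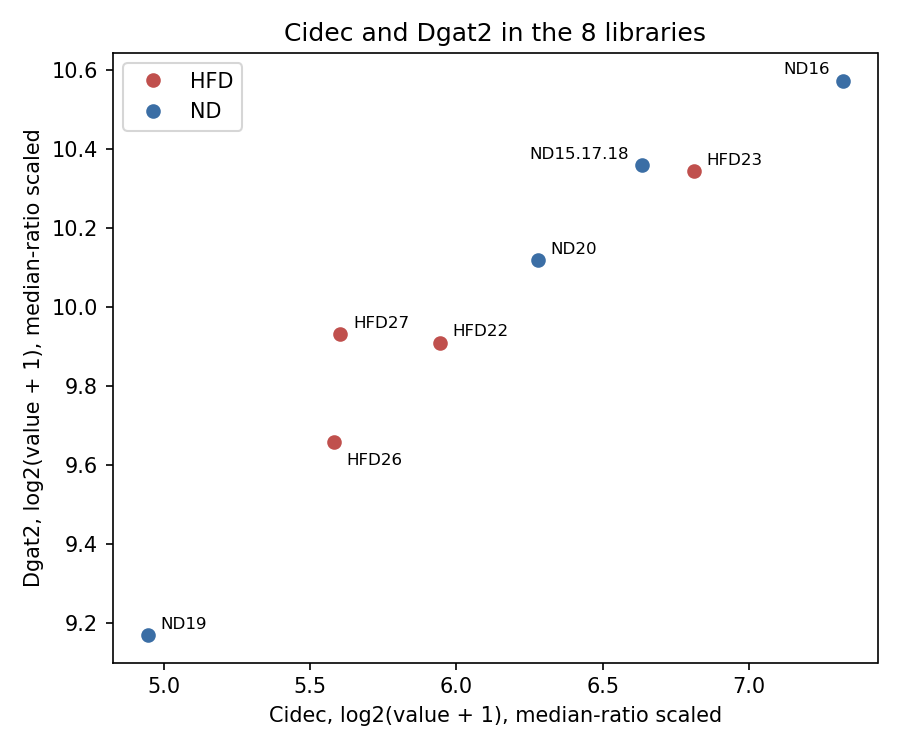
Dgat2 against Cidec in the 8 libraries, each axis as log2(value + 1) after median-ratio scaling, with HFD and ND libraries in different colours. The points run from ND19, low in both genes, to ND16, high in both, with HFD libraries between them.

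Other measures also varied between the libraries. The summed level of intestinal markers was 11.36, 11.79, 11.42 and 11.46 in HFD22, HFD23, HFD26 and HFD27. In ND15.17.18, ND16, ND19 and ND20 it was 11.41, 11.62, 10.94 and 11.14. Fabp2, Vil1, Lct and Apoa4 were higher in ND16 than in ND19, and the other intestinal markers were lower. The sum of adipocyte markers was 8.12, 7.89, 8.39 and 8.01 in the HFD libraries, in the same order. It was 7.13, 7.01, 8.85 and 6.98 in the ND libraries. The part of either list in the relation was not tested. Of the other relations, that of Plin2 and Plin3 had an r of 0.790 and a rho of 0.738 (exact permutation p = 0.019 and 0.046, adjusted p = 0.38 and 0.52). The r was 0.120 without ND15.17.18 and ND20, so the relation rests on those libraries. Plin2 and Plin5 had an r of 0.753 and a rho of 0.738 (exact permutation p = 0.034 and 0.046, adjusted p = 0.38 and 0.52), with an r of 0.650 without the same libraries.

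Per gene length, Plin3 was the most abundant of the 10 genes and Plin5 the least. Levels per kilobase of exon, on the log2(value per kb + 1) scale with exon lengths from GENCODE M21, were 9.76 ± 0.067 in HFD and 9.76 ± 0.29 in ND for Plin3 (SD, n = 4 each), which stood first. Pnpla2 followed, at 9.04 ± 0.12 in HFD and 9.10 ± 0.29 in ND, and Plin3 lay above it in 8 of 8 libraries. Dgat2, Dgat1 and Fitm2 came next, with means over all libraries of 8.39, 8.05 and 7.66, and neighbours in this stretch changed places in 1 or 2 libraries. Plin2 and Lipe, at 6.57 ± 0.46 and 6.49 ± 0.11 (SD, n = 8), could not be ordered, since Plin2 lay above Lipe in 5 of 8 libraries. On average both lay above Plin4 and Cidec, at 5.42 ± 0.20 and 5.27 ± 0.76 (SD, n = 8), which were in either order in 4 libraries each. Plin5 was last, at 4.60 ± 0.22 in HFD and 3.65 ± 0.92 in ND (SD, n = 4 each). Whether reads in introns were counted is not given in the sources used here, and such reads would raise these levels.

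The wider pathway showed the same lack of called genes, with 0 of the 85 other tested genes called in either direction, beside the 0.0109% of all rows that were. Of 14 other coat and droplet surface proteins, 10 differences were positive and 4 negative, with a median of 0.055. The most abundant was Hsd17b11, a droplet dehydrogenase, at 11.64 ± 0.12 in HFD and 11.89 ± 0.40 in ND (SD, n = 4 each). Of 10 tested genes of droplet biogenesis 4 were positive and 6 negative. Groups stood apart for 1 gene in each direction, against 4.72% of all rows with HFD higher and 3.12% with HFD lower. Within that list Bscl2, the gene of seipin, which organises the sites where droplets form, had all HFD libraries above all controls, at 10.50 ± 0.13 in HFD and 10.29 ± 0.072 in ND (SD, n = 4 each; limma adjusted p = 0.52). Acsl3, an acyl-CoA synthetase of nascent droplets, had them all below, at 9.85 ± 0.029 in HFD and 10.18 ± 0.32 in ND (SD, n = 4 each; limma adjusted p = 0.50), while its difference on the deposited scale was 0.53. Vmp1 was the most abundant gene of that list, at 13.04 ± 0.34 in HFD and 12.76 ± 0.24 in ND (SD, n = 4 each).

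In the 19 tested genes of glycerolipid synthesis, 9 differences were positive and 10 negative, with a median of -0.0015 and 0 genes whose groups stood apart. Mogat1, which makes diglyceride from monoglyceride, was the most abundant of them, at 12.41 ± 0.061 in HFD and 12.42 ± 0.32 in ND (SD, n = 4 each), while its paralog Mogat2 stood at 5.67 ± 0.71 in HFD and 4.98 ± 0.62 in ND. Of the 18 lipase genes and partners 9 were positive and 9 negative, and 3 had all HFD libraries above all controls, namely G0s2, Ces1d and Abhd6, against 4.72% of all rows. Abhd6, a monoglyceride hydrolase, stood at 11.20 in HFD23 and at 8.47 to 8.68 in the other HFD libraries, against 8.03 to 8.43 in ND. Lpl, the lipase of circulating lipoproteins, was the most abundant gene of that list, at 11.43 ± 0.084 in HFD and 11.72 ± 0.46 in ND (SD, n = 4 each). Sterol ester genes, led by Nceh1 at 11.25 ± 0.058 in HFD and 11.04 ± 0.21 in ND, and lipoprotein export genes, led by Apoa1 at 13.78 ± 0.28 in HFD and 13.70 ± 0.49 in ND (SD, n = 4 each), had 0 genes whose groups stood apart.

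Of 13 regulators, Ppard, a fatty acid receptor of the PPAR family, and Prkar2b, a regulatory subunit of the kinase that activates Lipe, had all HFD libraries below all controls after median-ratio scaling, 2 of 13 against 3.12% of all rows. Ppard stood at 10.42 ± 0.016 in HFD and 10.94 ± 0.23 in ND (SD, n = 4 each; limma adjusted p = 0.22), and Prkar2b at 6.92 ± 0.11 in HFD and 7.50 ± 0.18 in ND (SD, n = 4 each; limma adjusted p = 0.35). On the deposited scale both differences were positive, at 0.33 and 0.27. Rxra, the partner receptor of the PPARs, was the most abundant regulator, at 11.76 to 12.46 in HFD and 11.78 to 12.24 in ND.

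**Figure D4:**
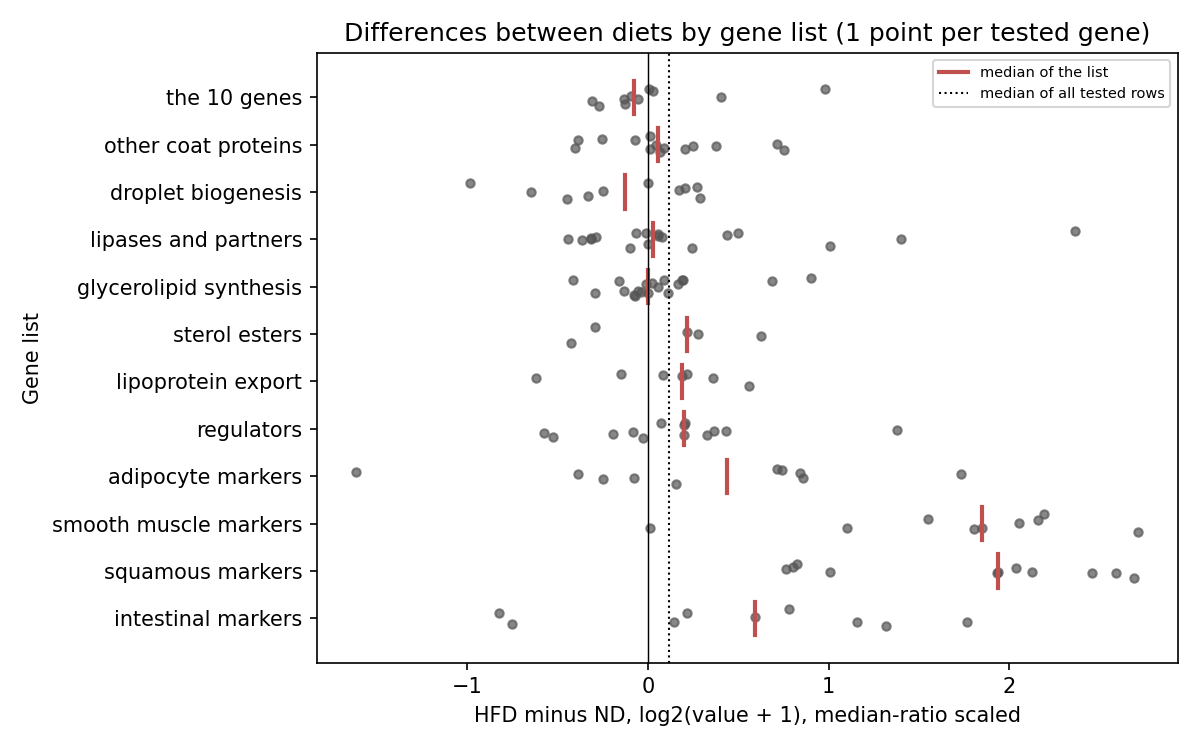
Difference between HFD and ND on the log2(value + 1) scale after median-ratio scaling, 1 point per tested gene, by gene list, with the median of each list in red and the median of all tested rows dotted. The 10 genes and the lists of lipid metabolism centre near 0, while the smooth muscle and squamous marker lists have medians of 1.85 and 1.94.

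Several of these genes are also expressed by adipocytes, so adipocyte markers were examined. Of 11 such markers 3 (Adipoq, Cfd and Retn) were listed at 0 in at least 4 libraries, and Plin1, the perilipin of adipocytes, stood at 0.97 to 4.46 in HFD and 2.35 to 5.36 in ND. The summed level of the list was 7.89 to 8.39 in HFD and 6.98 to 8.85 in ND, with ND19 highest, and Fabp4, which endothelial cells and macrophages express as well, was its most abundant gene. Smooth muscle markers had summed levels of 12.02 to 12.65 in HFD and 10.59 to 11.68 in ND, groups that did not overlap, and squamous markers 11.49 to 12.67 in HFD and 8.38 to 11.66 in ND. Leukocyte and macrophage markers stood at 8.57 to 9.12 in HFD and 7.78 to 9.71 in ND, endothelial markers at 10.25 to 10.86 in HFD and 9.33 to 11.10 in ND, and fibroblast markers at 11.52 to 12.73 in HFD and 10.82 to 13.10 in ND. Chief cell markers stood at 21.22 to 21.60 in HFD and 20.23 to 21.34 in ND, and surface and neck cell markers at 19.23 to 19.93 in HFD and 19.36 to 20.21 in ND. These sums follow the few most abundant genes. Differences were positive in 59.9% of all rows. By gene, that held for 6 of 6 chief cell, 9 of 9 smooth muscle, 11 of 11 squamous and 7 of 9 intestinal markers. The medians of these lists were 0.92, 1.85, 1.94 and 0.59. It also held for 7 of 8 fibroblast, 6 of 7 endothelial, 9 of 14 leukocyte and macrophage and 6 of 10 tested adipocyte markers. For 3 of 9 parietal, 2 of 6 surface and neck, and 3 of 8 gastric epithelium markers it held as well. Of the chief cell markers, 3 had all HFD libraries above all controls, against 4.72% of all rows. That count was 7 of 9 for smooth muscle, 1 of 11 for squamous and 2 of 9 for intestinal markers. It was 1 of 14 for leukocyte and macrophage markers. In the surface and neck list 1 of 6, Muc5ac, had all HFD libraries below, against 3.12% of all rows. It stood at 15.92 ± 0.18 in HFD and 17.53 ± 0.80 in ND (SD, n = 4 each; limma adjusted p = 0.20). The other surface and neck markers had overlapping groups. Their differences were -0.27 for Muc6, -0.12 for Gkn1, -0.12 for Tff1, 0.070 for Gkn2 and 0.11 for Tff2. Of 8 gastric epithelium markers 1 stood above and 2 below, against 4.72% and 3.12% of all rows. Muc5ac was named after its values were seen. The part of any of these cells in the levels of the 10 genes was not tested.

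The rows most like 3 of the genes were sought by Pearson's r over the 8 libraries, among 15672 named rows with a mean level of at least 5, as a description of libraries that share their scaling. For Plin2 they were Tnn, Mrps23 and Gm10154 (r of 0.983 each), for Pnpla2 Caprin2, Mindy3 and Zfp715 (r of 0.976, 0.974 and 0.954), and for Dgat2 Itga10, Il15 and Fam83b (r of 0.970, 0.967 and 0.966). No other member of the 10 was among them.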

How the data were processed

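Gene expression was measured by sequencing of total RNA from sorted gastric epithelial cells in 8 libraries, 4 HFD and 4 ND, grouped by their titles. Per the labels' protocols, ribosomal RNA was removed and libraries were made with an Ion Total RNA-Seq kit. The submitters' processing notes name mm10 and bedtools 2.17.0 without their roles. No label or header names the aligner, the annotation or the normalization. The authors deposited 1 normalized value per row, read here as log2 because the antilogs sum to 36.88 M in every table. Values are floored at 0, and 0 was taken as 0. Of 38920 rows, 32891 matched a symbol in RefSeq's GRCm38.p6 table, the assembly of mm10.

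Each library's linear values were divided by its median ratio to row means, taken from 11115 rows that exceed 30 everywhere. The 27401 rows reaching an unscaled linear value of 1 in 4 or more libraries were tested on log2(value + 1) with limma 3.58.1 (trend and robust, R 4.3.3) and Benjamini-Hochberg adjustment. The pseudocount shrinks differences of weakly expressed genes. Depth was estimated from the step between the 2 most frequent values of each table. Whole reads were not assumed, so no count model or counting interval was used. All 10 genes passed the filter. Overlaps and exon lengths came from GENCODE M21. The fit was tested on simulated data.

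The 10 genes, the lists, the median-ratio scaling and the tests were chosen with earlier results of these data known. From the lists of lipid metabolism the text names the most abundant gene and, at a mean level of at least 5, genes whose groups do not overlap or that were called. Abhd5, G0s2, Mogat2, the surface and neck markers and single adipocyte markers are named outside this rule, after their values were seen. So are genes with a library far from its group. Alternatives were the deposited scale, quantile normalization, pseudocounts of 10 and 0.1, no filter, a filter at 30, limma without trend and robust options, and libraries left out. Leaving out ND15.17.18 with ND19, and other scalings of the pair differences and of the correlation, were added after the data had been seen.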

Additional observations from a re-analysis of the deposited data

Results flagged for a closer look

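None of the 10 genes or 3 pair differences had a library set apart from the other 3 of its group by Dixon's test at the 95% level. Over these, the 85 other tested lipid genes and 3 adipocyte markers, 202 groups were examined and 19 had such a library. The test's rate of about 1 in 20 assumes independent normal values. These genes share the same libraries and some values were listed at 0, so no excess over chance was judged. Of the 19, 7 were in HFD23 and 5 in ND19. HFD23 was highest of the HFD libraries in Abhd6 at 11.20 (8.68 in the next), Acsl4 at 10.73 (9.41), Tfeb at 10.26 (8.70) and Abhd5 at 9.48 (9.22). It was lowest in Nceh1 at 11.17 (11.28 in the next), Plin1 at 0.97 (4.10) and Apoc3, which was listed at 0 (1.88). HFD22 was lowest in Hsd17b11 at 11.46 (11.68 in the next), and HFD26 was highest in Bscl2 at 10.69 (10.45). ND19 was highest of the ND libraries in Cel at 12.03 (10.73 in the next) and Mttp at 6.82 (6.56), and lowest in Pcyt1a at 11.35 (12.09) and Prkar2b at 7.23 (7.56). ND16 was highest in Hif1a at 10.32 (9.94 in the next). ND15.17.18 was lowest in Mogat2 at 4.06 (5.16 in the next) and in Lcat, listed at 0 (2.11). Fitm1 at 1.57 in HFD22, Retn at 1.43 in HFD27 and Dgat2l6 at 2.11 in ND19 were listed at 0 in the other libraries of their group.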

How the results depend on the processing

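None of the 10 genes was called under any of the 17 alternatives run for each (lowest limma adjusted p = 0.32). Directions changed in 21 of these 170 values. On the deposited scale, Plin4, Cidec, Pnpla2, Dgat1, Dgat2 and Fitm2 were positive, at 0.73, 0.53, 0.80, 0.73, 0.76 and 0.59, because the median row was at 0.90 there, and 16 of all rows were called (13 higher and 3 lower, against 1 higher and 2 lower after median-ratio scaling). After quantile normalization Lipe was -0.047 and Lipe minus Pnpla2 -0.015, and the correlation of Cidec and Dgat2, at r = 0.918, lost its call (exact permutation adjusted p = 0.11). With 1 library left out, differences ran from 0.098 to 0.62 for Plin2, 0.69 to 1.27 for Plin5, -0.13 to 0.10 for Plin3, -0.057 to 0.081 for Lipe, -0.76 to 0.028 for Cidec, -0.39 to 0.073 for Dgat2 and -0.22 to 0.030 for Pnpla2, Plin2 minus Plin3 from 0.23 to 0.52, Dgat2 minus Dgat1 from -0.16 to 0.19, and the count of all rows called from 2 to 5. Without ND20, Plin2 minus Plin3 reached an exact permutation p of 0.029, not adjusted over the 3 pairs. ND20 was the only control that lay among the HFD values. Leaving it out set the groups fully apart and gave the smallest p that the libraries left allow. The exact permutation p of Plin2 minus Plin3 was 0.4 after quantile normalization and 0.27 without ND15.17.18 and ND19. The latter setting leaves too few libraries for an exact permutation p under 0.05. Without HFD23 and ND15.17.18, Plin3 was -0.15, Lipe -0.0012 and Dgat2 minus Dgat1 -0.060. Without ND15.17.18 and ND19, Plin2 was -0.0097, Plin3 -0.11, Lipe -0.081 and Dgat2 minus Dgat1 -0.048, while Cidec, Pnpla2, Dgat1, Dgat2 and Fitm2 moved further from 0, to -0.86, -0.30, -0.38, -0.43 and -0.37, and 0 rows were called over all genes (3018 at an unadjusted p under 0.05 from limma). The cause of these changes was not tested. Plin5 rests on the fewest reads, 3.44 in ND15.17.18, a library with an estimated depth of 53.3 M whose 20 most abundant rows took 85.7% of the total. No paired analysis was possible because the titles of the groups share no replicate number.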
